A study of Mus musculus with 18 samples.

Results

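Sterol and fatty acid synthesis was described here through 33 genes measured by bulk RNA sequencing in dendritic cells (DCs) grown from bone marrow. The members form a gene module put together by function, whose rule uses no measured value, though they were chosen with earlier results of these data known. Each was found by its symbol in the table of normalized counts. All 33 members were found, each once, among the 62197 entries of the table, and all 33 passed the filter on low values that left 17875 genes for testing. They fall into 4 roles: 6 regulators and sterol carriers, 7 enzymes of the mevalonate steps, 11 enzymes from squalene to cholesterol, and 9 enzymes of fatty acid synthesis and desaturation.

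Cells make cholesterol from acetyl-CoA through mevalonate, isoprenoid units and squalene, and they make fatty acids from the same precursor through malonyl-CoA. Most of these enzymes are transcribed under the SREBP factors, which leave the endoplasmic reticulum with the escort protein SCAP when sterols are scarce and are held there by the INSIG proteins when sterols are plentiful. In myeloid cells, the balance of synthesis, uptake and export of sterols is known to change with activation, and the desaturases also supply the unsaturated fatty acids that phospholipases release from membranes.

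The study asked how changes of cell shape act on DCs and whether this needs cytosolic phospholipase A_2_ (cPLA_2_), encoded by *Pla2g4a*. Bone marrow cells were cultured for 10 days with granulocyte-macrophage colony-stimulating factor. Both sexes were used, at a stated age of 8 to 14 weeks. For the bone marrow donors the culture protocol gives a slightly younger age (6 to 8 weeks). The cPLA_2_ KO mice carried floxed *Pla2g4a* alleles and a Cre recombinase driven by *Itgax*, so that deletion depends on CD11c expression, and littermates or age-matched mice served as cPLA_2_ WT controls.

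There were 6 conditions with 3 libraries each, 18 in all. Nonconfined cPLA_2_ WT and cPLA_2_ KO DCs were collected at the end of the culture. Confined cPLA_2_ WT and cPLA_2_ KO DCs were held at a height of 3 µm and collected after 4 h. LPS-treated DCs of both genotype labels received 100 ng ml-1 lipopolysaccharide for 30 min per the labels (slightly less in the study's methods), were washed and were collected the next day. Handling and time of collection therefore differed between nonconfined cells and the other groups and cannot be told apart from confinement or LPS. The study calls the replicates biological, but the labels do not say whether they came from separate mice, so the p-values measure the spread between libraries. Reads recovered from the normalized values ranged from 33027230 to 61300021 per library, with a median of 40950398.

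The genotype labels were checked first. *Pla2g4a* had 697, 686 and 770.4 normalized counts in the nonconfined cPLA_2_ WT libraries and 548, 542 and 533 in the nonconfined cPLA_2_ KO libraries. Confined libraries had 1369, 1430.3 and 1321 for cPLA_2_ WT and 923, 871 and 919.5 for cPLA_2_ KO. Both pairs of groups were separate, with lower counts under the cPLA_2_ KO label. In LPS-treated cells the counts were 1005, 969 and 967 in the libraries labelled cPLA_2_ WT and 1065, 1032 and 1028 in those labelled cPLA_2_ KO. All 3 of the latter lay above all 3 of the former, against the label.

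The Y-linked gene *Ddx3y* gave a second check. It had 3.05, 0 and 1.97 normalized counts in nonconfined cPLA_2_ WT libraries and 949, 981 and 874 in nonconfined cPLA_2_ KO libraries. The confined libraries had 0, 1.72 and 2.37 for cPLA_2_ WT and 1036, 920.2 and 948 for cPLA_2_ KO. Genotype and the presence of male cells therefore cannot be told apart in the nonconfined and confined groups. In LPS-treated cells *Ddx3y* had 1271, 0 and 662 counts under the cPLA_2_ WT label and 2.12, 1476 and 783 under the cPLA_2_ KO label. Within each LPS group 1 library was near 0, 1 was high and 1 lay between, and *Eif2s3y*, *Kdm5d* and *Uty* ranked the LPS libraries of each group in the same order. *Xist* was read in all 18 libraries, from 12153 counts in nonconfined cPLA_2_ KO replicate 1 to 33681 in nonconfined cPLA_2_ WT replicate 2. Results that rest on the LPS genotype labels are given below with all libraries. Values past 1.5-fold are also given with 4 libraries left out where this moves them by over 1.5 times. These are the 4 whose *Ddx3y* level goes against or lies between the other libraries of their label. With them left out 1 LPS library per label remains, so members called in that fit are not counted. The remaining library labelled cPLA_2_ KO (replicate 2) had more *Pla2g4a* than the remaining one labelled cPLA_2_ WT (replicate 2), 1032 against 969 normalized counts, so its label is not borne out by that gene either.

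Levels differed widely between members. Per kilobase of the canonical transcript, nonconfined cPLA_2_ WT DCs had 5122 normalized counts for *Fdps*, the synthase of farnesyl diphosphate, and 4769 for *Srebf2*, the SREBP factor best known for sterol genes. *Idi1*, the isomerase of the isoprenoid unit, had 3848 per kilobase, and *Acly*, which splits citrate into acetyl-CoA, had 3696. At the other end were *Hsd17b7* with 95.5, *Scd1* with 87.4 and *Acss2*, which makes acetyl-CoA from acetate, with 36.0 per kilobase. By the mean of 3 libraries, 15 members had their highest level in nonconfined cPLA_2_ WT DCs and none had its lowest there. Nonconfined cPLA_2_ KO DCs held the lowest mean of 14 members and confined cPLA_2_ WT DCs that of 10. The ratio of the highest to the lowest condition mean ran from 1.23 for *Acly* to 4.70 for *Scd1*, with 4.34 for *Elovl6*, 3.97 for *Dhcr7*, 3.83 for *Idi1* and 3.67 for *Fasn*.

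**Figure D1:**
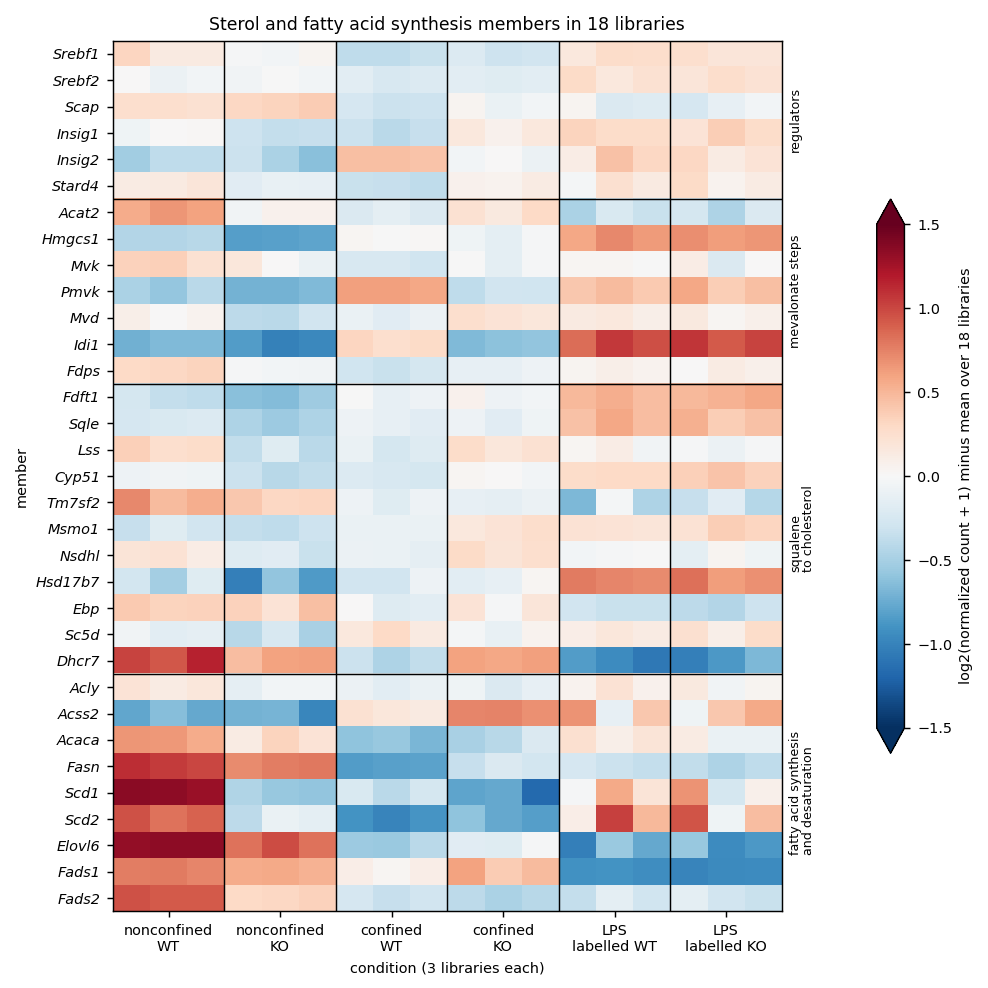
Each member (rows, by role) in each of the 18 libraries (columns, 3 per condition), as log2(normalized count + 1) minus the member's mean over the 18 libraries, with red above and blue below that mean. The lower block is mostly red in nonconfined WT libraries, where *Scd1*, *Scd2*, *Elovl6* and *Fasn* are highest or among the highest, while *Idi1* and *Hmgcs1* are highest in LPS-treated libraries.

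Nonconfined cPLA_2_ KO DCs were compared with nonconfined cPLA_2_ WT DCs to describe the effect of the genotype label without confinement. Of the 33 members, 26 were called lower in cPLA_2_ KO DCs (limma, adjusted p under 0.05) and 0 higher, whereas 4.11% of all genes tested were lower and 4.78% higher. edgeR and DESeq2 also called 26 lower and 0 higher, and 26 members, all lower, had an unadjusted p under 0.05 in limma. Same-total scaling also gave 26 lower and 0 higher, against 5.85% and 4.23% of all genes. The median log2 fold change over the members was -0.29, against -0.0016 over all genes tested. In 28 of the 33 members the 3 cPLA_2_ KO libraries did not overlap the 3 cPLA_2_ WT libraries, against 28.6% of all genes tested. By role, 3 of 6 regulators, 7 of 7 mevalonate enzymes, 8 of 11 enzymes from squalene to cholesterol and 8 of 9 fatty acid enzymes were lower.

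Fatty acid enzymes are given first. *Scd1*, a stearoyl-CoA desaturase that makes monounsaturated fatty acids, had 447, 442 and 429 normalized counts in cPLA_2_ WT and 128, 117 and 115 in cPLA_2_ KO libraries. Its paralog *Scd2* had 6669.6, 6041 and 6363 in cPLA_2_ WT and 2611, 3196 and 3107 in cPLA_2_ KO. *Fads2*, which desaturates polyunsaturated fatty acids, had 8253, 8059 and 8084 in cPLA_2_ WT and 5244, 5296 and 5432 in cPLA_2_ KO. For all 3 genes every cPLA_2_ WT library lay far above every cPLA_2_ KO library. *Scd1* fell by 1.86 on the log2 scale (SE 0.19, adjusted p = 2.32e-06), and *Scd2* fell by 1.10 (SE 0.19, adjusted p = 0.000769). *Fads2* fell by 0.61 (SE 0.054, adjusted p = 7.36e-07). *Elovl6*, the elongase of palmitate, had 2175, 2210.2 and 2209 counts in cPLA_2_ WT and 1537, 1729 and 1532 in cPLA_2_ KO, and *Fasn*, the fatty acid synthase, had 9569, 9186 and 8861 in cPLA_2_ WT and 7236, 7511 and 7690.2 in cPLA_2_ KO. Both were lower in all 3 cPLA_2_ KO libraries, by smaller amounts (log2 fold changes -0.46 and -0.30).

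Among sterol enzymes *Lss*, which closes the ring to lanosterol, had the largest difference. It had 2188, 2023 and 2072 normalized counts in cPLA_2_ WT and 1317, 1509 and 1286 in cPLA_2_ KO libraries. The groups were separate, and *Lss* fell by 0.61 on the log2 scale (SE 0.064, adjusted p = 4.22e-06). *Dhcr7*, the reductase of the last step to cholesterol, had 960.1, 912 and 1063 counts in cPLA_2_ WT and 657, 724 and 729.8 in cPLA_2_ KO, again without overlap. *Hmgcs1*, which makes the precursor of mevalonate, had 4831, 4842 and 4898 in cPLA_2_ WT and 3699.8, 3721 and 3789.8 in cPLA_2_ KO, and *Insig1*, which holds SREBP factors in the endoplasmic reticulum, had 5029.9, 5268 and 5297 in cPLA_2_ WT and 4239.7, 4090.3 and 4132 in cPLA_2_ KO. Each cPLA_2_ KO library was below each cPLA_2_ WT library for both genes, which fell by 0.38 and 0.32 on the log2 scale. The other called members fell by amounts between 0.20 (*Srebf1*) and 0.57 (*Acat2*). *Srebf2*, with 25048, 23369.5 and 24218 counts in cPLA_2_ WT and 23959, 24723 and 24188 in cPLA_2_ KO, was not called (0.0051, adjusted p = 0.967), nor were *Scap*, *Insig2*, *Tm7sf2*, *Msmo1*, *Ebp* and *Acss2*.

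Cell type markers moved in the same comparison. Of 10 neutrophil markers 7 were higher in nonconfined cPLA_2_ KO DCs, of 7 eosinophil markers 6 were higher and 1 lower, and of 8 markers of dividing cells 4 were lower. In bulk samples, fewer cells of a type and less RNA per cell cannot be told apart, and the part of the marker differences in the members' differences was not tested. *Srebf1*, *Mvk*, *Pmvk*, *Sc5d*, *Acly* and *Fads1* lost their call in at least 1 of the 6 fits that left out a single library, which between them kept 22 to 25 calls. *Mvk* was lost without cPLA_2_ WT replicates 1, 2 or 3 or cPLA_2_ KO replicates 2 or 3, *Pmvk* and *Sc5d* without cPLA_2_ WT replicates 1 or 3 or cPLA_2_ KO replicates 1 or 3, *Srebf1* without cPLA_2_ WT replicate 1 or cPLA_2_ KO replicate 1, *Acly* without cPLA_2_ KO replicate 1, and *Fads1* without cPLA_2_ KO replicate 3.

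Confinement was examined first in cPLA_2_ WT DCs. Compared with nonconfined cPLA_2_ WT DCs, 8 members were higher and 23 lower in their confined counterparts, against 28.2% of all genes tested higher and 28.4% lower. With a log2 fold change beyond 1 as well, 1 member was higher and 7 were lower, against 11.4% and 7.62% of all genes. The median log2 fold change was -0.47 over the members and -0.0055 over all genes tested. Libraries of the groups did not overlap for 32 members, against 64.3% of all genes. When all libraries were scaled to the same total, 5 members were higher and 24 lower, against 20.02% and 41.3% of all genes, and the median of all genes moved to -0.23; *Msmo1*, a sterol methyl oxidase called higher, then had a negative fold change (0.18 against -0.049).

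Fatty acid enzymes fell most, with 8 of 9 lower. *Fasn* had 2475, 2522 and 2528 normalized counts in the confined cPLA_2_ WT libraries, *Elovl6* had 599, 593 and 659.8, and *Scd2* had 1839, 1736 and 1856. These were well below all nonconfined cPLA_2_ WT libraries given above. *Fasn* fell by 1.87 on the log2 scale (SE 0.047, adjusted p = 1.79e-18), *Elovl6* by 1.83 (SE 0.10, adjusted p = 1.29e-12) and *Scd2* by 1.81 (SE 0.19, adjusted p = 3.60e-08). *Scd1*, with 149, 131 and 145 counts in confined cPLA_2_ WT libraries, fell by 1.63 (SE 0.19, adjusted p = 1.52e-07). *Acaca*, the carboxylase that makes malonyl-CoA, went from 3499, 3491 and 3263 counts in nonconfined to 1462, 1496 and 1373 in confined cPLA_2_ WT libraries, a change of -1.24 (SE 0.075, adjusted p = 5.93e-12). *Fads2*, with 3571, 3367 and 3504 counts after confinement, changed by -1.22 (SE 0.054, adjusted p = 2.90e-14), and *Fads1*, the other polyunsaturated fatty acid desaturase, by -0.69 (SE 0.049, adjusted p = 1.07e-10). *Acss2* went the other way, from 104, 115 and 105 to 209.7, 202 and 198 counts, an increase of 0.90 (SE 0.17, adjusted p = 0.000124). All 9 enzymes had separate groups of libraries.

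The mevalonate steps were split. *Pmvk*, a kinase of the mevalonate pathway, had 1517, 1407 and 1589.99 normalized counts in nonconfined and 3212, 3232 and 3146 in confined cPLA_2_ WT libraries. *Idi1* had 9713, 10130.3 and 10054 in nonconfined and 20038, 19008 and 19454 in confined libraries. Both about doubled, with no overlap. The log2 fold changes were 1.09 (SE 0.056, adjusted p = 3.99e-13) for *Pmvk* and 0.97 (SE 0.054, adjusted p = 1.67e-12) for *Idi1*. *Hmgcs1* rose less, to 6679, 6521 and 6632 counts (0.44, adjusted p = 1.15e-08). *Acat2*, the thiolase that joins acetyl-CoA units, went from 1105, 1191 and 1139.9 to 649, 678 and 647 counts and fell by 0.80 (SE 0.077, adjusted p = 1.30e-08). *Fdps* fell by 0.61 (SE 0.039, adjusted p = 2.14e-11), and *Mvk* and *Mvd* fell by 0.57 and 0.17.

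From squalene to cholesterol, 3 members rose, 6 fell and 2 were not called. *Dhcr7* had 382, 345 and 369.6 normalized counts after confinement, less than any nonconfined cPLA_2_ WT library, and fell by 1.42 on the log2 scale (SE 0.093, adjusted p = 2.45e-11). *Tm7sf2*, a sterol reductase, went from 381, 321 and 338 to 218, 203 and 219 counts and fell by 0.69 (SE 0.13, adjusted p = 0.000111). *Lss*, with 1589.6, 1423 and 1489 counts, fell by 0.48, and *Ebp*, *Nsdhl* and *Cyp51* fell by 0.47, 0.28 and 0.17. The rises were small: 0.26 for *Fdft1*, the squalene synthase, 0.31 for *Sc5d* and 0.18 for *Msmo1*. Under same-total scaling none of these 3 was called (0.037, adjusted p = 0.527 for *Fdft1*, 0.084, adjusted p = 0.360 for *Sc5d* and -0.049, adjusted p = 0.408 for *Msmo1*, whose direction turned), and *Sqle* was called lower (-0.12, adjusted p = 0.0413). Among regulators *Insig2* alone rose, from 371, 411 and 411 to 731, 729.7 and 720.2 counts, by 0.87 (SE 0.09, adjusted p = 3.68e-08). *Insig1*, *Srebf1*, *Scap*, *Stard4* and *Srebf2* fell by 0.34, 0.56, 0.54, 0.50 and 0.17. In the same comparison all 10 neutrophil markers, 7 of 8 markers of dividing cells and 5 of 7 eosinophil markers were lower, and their part in the members' changes was not tested.

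In cPLA_2_ KO DCs the same comparison gave 17 members higher and 10 lower with confinement, against 22.8% of all genes tested higher and 23.4% lower. Beyond a log2 fold change of 1 there was 1 member in each direction (*Acss2* higher, *Fasn* lower), against 6.43% and 5.53% of all genes. Same-total scaling gave 16 higher and 11 lower, against 20.8% and 25.9% of all genes. The median log2 fold change was 0.19 over the members and 0.010 over all genes. Groups did not overlap for 28 members, against 54.4% of all genes. By role, 3 regulators were higher and 3 lower, 5 of 7 mevalonate enzymes were higher, 8 of 11 enzymes from squalene to cholesterol were higher and 2 lower, and 1 of 9 fatty acid enzymes was higher and 5 lower.

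*Fasn* had 3473, 3814 and 3655 normalized counts in confined cPLA_2_ KO libraries, less than in any nonconfined cPLA_2_ KO library, and fell by 1.04 on the log2 scale (SE 0.047, adjusted p = 1.67e-13). *Elovl6* had 775, 772 and 865 counts and fell by 0.99 (SE 0.10, adjusted p = 5.92e-08). *Fads2* had 3242, 3069 and 3186 and fell by 0.75 (SE 0.054, adjusted p = 2.82e-10). These 3 fell in both genotypes. *Acaca*, with 2412, 2801 and 2562 counts in nonconfined and 1579.7, 1667 and 1905 in confined cPLA_2_ KO libraries, fell by 0.60 (SE 0.075, adjusted p = 1.20e-06). *Scd2* went from the 2611, 3196 and 3107 counts of nonconfined cPLA_2_ KO libraries to 2256, 2015 and 1942 (-0.52, adjusted p = 0.0283), and *Scd1*, at 100.3, 102 and 77.5 counts, was not called (-0.37, adjusted p = 0.111). *Acss2* rose from 109.7, 111 and 90.3 to 299, 301 and 289 counts, by 1.51 (SE 0.17, adjusted p = 3.04e-07), the largest increase of the 33 members.

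Among sterol genes *Hmgcs1* rose to 6249, 5921 and 6479 normalized counts, by 0.73 (SE 0.043, adjusted p = 9.52e-12). *Hsd17b7*, a reductase of the late steps, went from 269, 366 and 305 to 492, 507 and 560.5 counts, by 0.74 (SE 0.11, adjusted p = 6.36e-06). All confined libraries lay above all nonconfined ones for both genes. *Insig1* had 5863, 5508 and 5871 counts and *Lss* had 2064, 1919 and 1990.3, above their nonconfined cPLA_2_ KO libraries, with log2 fold changes of 0.47 and 0.54. *Idi1*, at 10088, 10415 and 10553, and *Pmvk*, at 1621, 1724 and 1709.6, also rose, by 0.31 and 0.37. *Dhcr7* had 726, 711 and 728 counts, which overlapped the nonconfined cPLA_2_ KO libraries (0.038, adjusted p = 0.768). *Acat2*, *Ebp* and *Scd2* were called less steadily: *Acat2* lost its call without confined cPLA_2_ KO replicates 1 or 3 or any 1 nonconfined cPLA_2_ KO library, *Ebp* without confined replicate 2 or nonconfined replicates 1 or 3, and *Scd2* without confined replicates 2 or 3 or nonconfined replicates 2 or 3. Without confined cPLA_2_ KO replicate 1, *Fads1* was called lower. Under same-total scaling *Acat2* was not called (0.16, adjusted p = 0.125) and *Fdps* was called lower (-0.10, adjusted p = 0.0270). Of 10 neutrophil markers 4 were lower, of 10 DC markers 8 were lower and 1 higher, and their part was not tested.

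The change with confinement differed between genotypes by the test of the interaction, which subtracts the log2 fold change of cPLA_2_ WT DCs from that of cPLA_2_ KO DCs. This was positive for 24 members and negative for 3 at an adjusted p under 0.05, against 10.2% and 15.6% of all genes tested. Its median was 0.54 over the members and 0.051 over all genes. Same-total scaling gave 28 positive and 2 negative members, against 26.5% and 10.98% of all genes, of which more were then positive than negative, with the median of all genes at 0.24. The confinement comparisons and the genotype comparisons use the same 12 libraries. Of 10 DC markers 8 had a negative interaction and of 10 neutrophil markers 9 a positive one. Mast cell and basophil markers had 4 positive and 2 negative of 8, markers of dividing cells 3 positive of 8, eosinophil markers 1 of each sign of 7 and macrophage markers 2 negative of 8 tested, and the part of these markers was not tested.

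The members took different courses, and the shares of all genes that took each course are not given. *Insig1*, *Stard4*, *Acat2*, *Mvd*, *Lss*, *Cyp51* and *Nsdhl* fell in confined cPLA_2_ WT cells but rose in confined cPLA_2_ KO cells. *Mvk*, *Fdps*, *Dhcr7*, *Acly*, *Scd1* and *Fads1* fell in cPLA_2_ WT DCs and were not called in cPLA_2_ KO DCs, and their interactions were positive. *Srebf1*, *Acaca*, *Fasn*, *Scd2*, *Elovl6* and *Fads2* fell in both genotypes, with a positive interaction. *Hmgcs1*, *Fdft1* and *Msmo1* rose in both, also with a positive interaction, although under same-total scaling *Fdft1* and *Msmo1* were not called in cPLA_2_ WT DCs and *Hmgcs1* rose by 0.22. *Sqle*, the squalene epoxidase, and *Hsd17b7* were called higher in cPLA_2_ KO DCs alone, with positive interactions; their values in cPLA_2_ WT DCs turned negative under same-total scaling (-0.12 for both), where *Sqle* was called lower. *Insig2*, *Pmvk* and *Idi1* rose in both genotypes with a negative interaction, which was not called for *Insig2* under same-total scaling (-0.25, adjusted p = 0.151). *Sc5d* and *Acss2* rose, and *Srebf2*, *Scap*, *Tm7sf2* and *Ebp* fell, in both genotypes without a called interaction, though under same-total scaling the rise of *Sc5d* in cPLA_2_ WT DCs was not called and *Srebf2*, *Scap*, *Ebp* and *Acss2* had called positive interactions. The largest interaction was that of *Dhcr7*, 1.46 (SE 0.13, adjusted p = 1.69e-08), followed by *Scd2* with 1.29 (SE 0.26, adjusted p = 0.000808), *Scd1* with 1.26 (SE 0.26, adjusted p = 0.000962) and *Lss* with 1.02 (SE 0.091, adjusted p = 1.27e-08). *Pmvk* and *Idi1* had the most negative ones, -0.71 (SE 0.079, adjusted p = 3.84e-07) and -0.66 (SE 0.076, adjusted p = 8.18e-07). *Acly* lost its called interaction without nonconfined cPLA_2_ WT replicates 1 or 3, confined cPLA_2_ WT replicates 2 or 3, nonconfined cPLA_2_ KO replicate 1 or confined cPLA_2_ KO replicates 1 or 3, and *Ebp* gained one without confined cPLA_2_ WT replicate 1, confined cPLA_2_ KO replicate 2 or nonconfined cPLA_2_ KO replicate 3.

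**Figure D2:**
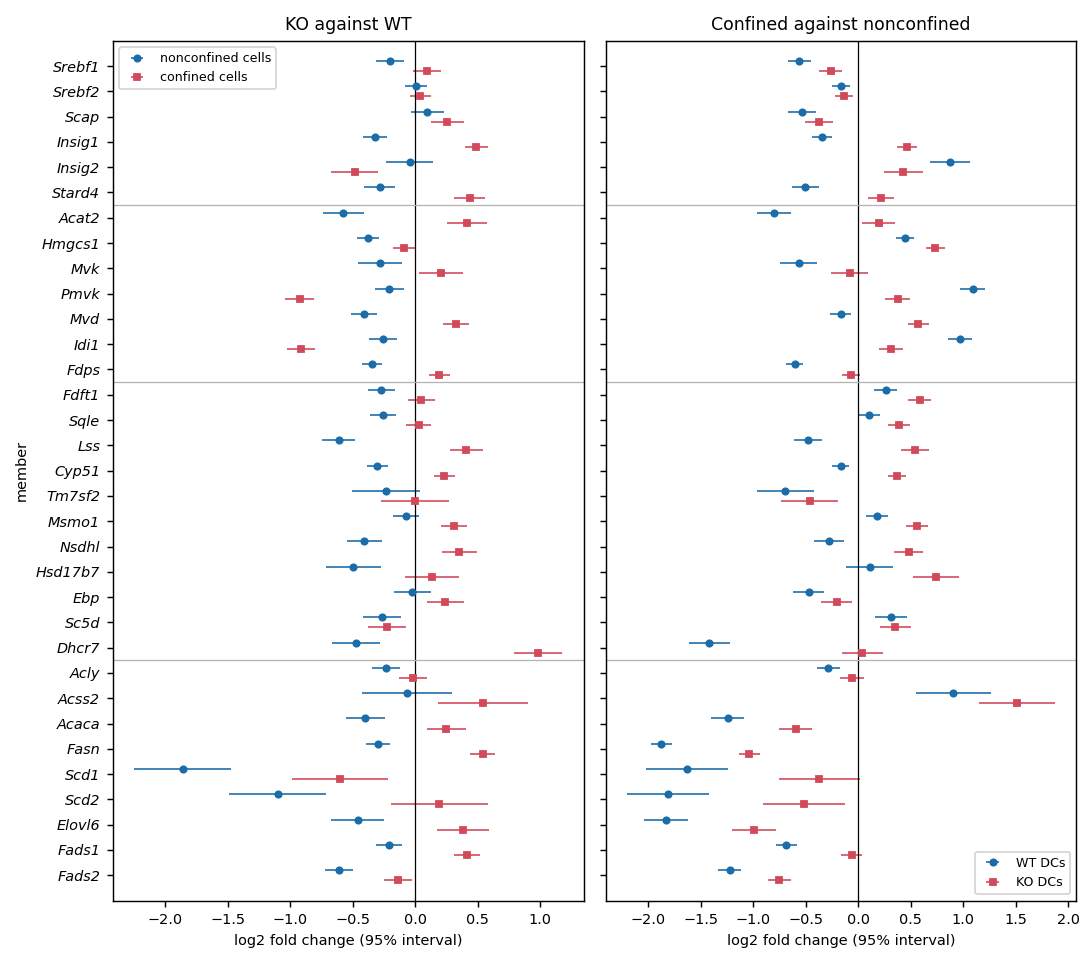
Log2 fold change of each member (points, with 95% intervals as bars) for KO against WT (left; circles nonconfined, squares confined) and for confined against nonconfined cells (right; circles WT DCs, squares KO DCs), from limma with 3 libraries per group. In the left panel most circles are below 0 and most squares above, with *Pmvk*, *Idi1* and *Scd1* below 0 in both, and at right *Fasn* lies at -1.87 in WT and -1.04 in KO DCs; under same-total scaling *Srebf2* (left, circle), *Acly*, *Hmgcs1*, *Tm7sf2* and *Fads2* (left, squares) and *Sqle*, *Msmo1* and *Hsd17b7* (right, circles) change sign.

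**Figure D3:**
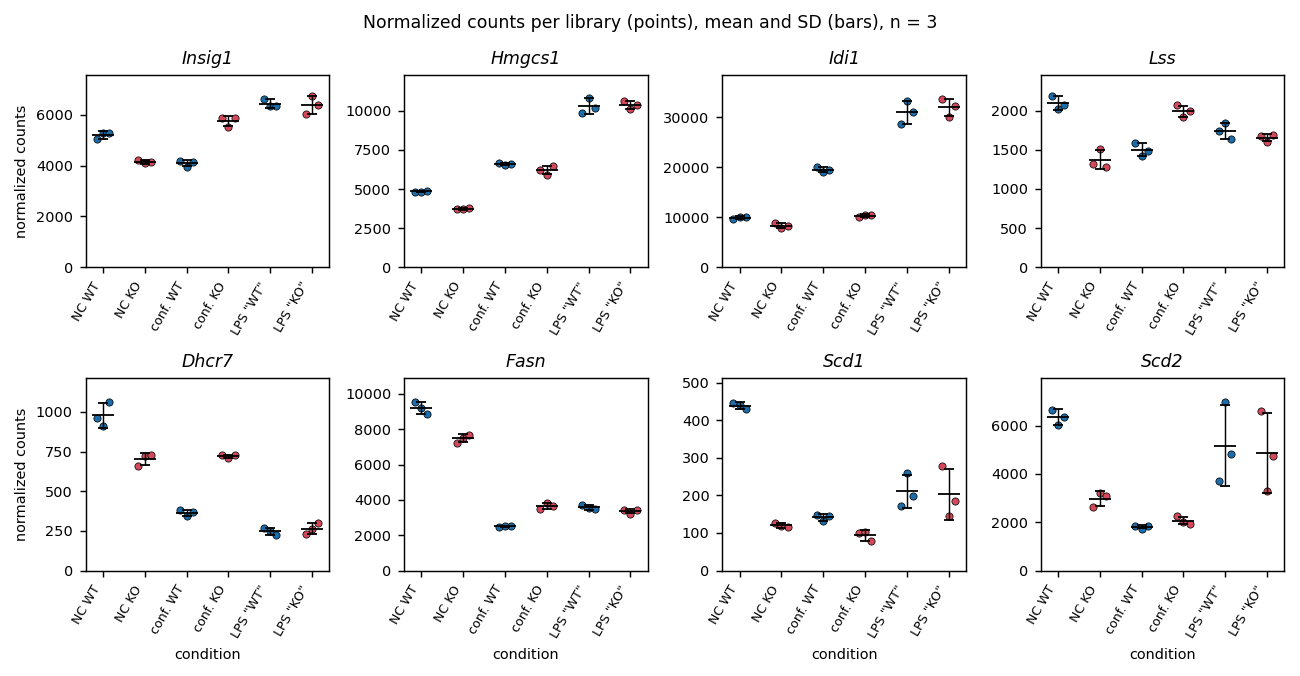
Normalized counts of 8 members in each library (points; blue for the WT label, red for the KO label), with the mean (line) and SD (bars) of the 3 libraries of each condition (NC, nonconfined; conf., confined). *Dhcr7* falls with confinement in WT (345 to 382 counts) and not in KO cells (711 to 728), and *Idi1* reaches 19008 to 20038 counts in confined WT cells and 10088 to 10553 in confined KO cells.

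Confined cPLA_2_ KO DCs were next compared with confined cPLA_2_ WT DCs. Here 17 members were higher and 6 lower in cPLA_2_ KO DCs, against 18.8% and 20.6% of all genes tested. With same-total scaling the members split 24 higher (with *Srebf1*, *Srebf2*, *Mvk*, *Fdft1*, *Sqle*, *Hsd17b7* and *Acly* added) and 3 lower (without *Sc5d*, *Scd1* and *Fads2*), against 33.6% and 14.6% of all genes, and the median of all genes moved from 0.041 to 0.19. The median over the members was 0.20. Groups did not overlap for 26 members, against 50.4% of all genes. Regulators were 3 higher and 1 lower, mevalonate enzymes 3 higher and 2 lower, enzymes from squalene to cholesterol 6 higher and 1 lower, and fatty acid enzymes 5 higher and 2 lower.

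*Dhcr7* was higher in every confined cPLA_2_ KO library (711 to 728 normalized counts) than in any confined cPLA_2_ WT library (345 to 382), by 0.98 (SE 0.093, adjusted p = 2.02e-08). *Idi1*, with 10088 to 10553 counts in cPLA_2_ KO and 19008 to 20038 in cPLA_2_ WT, fell by 0.91 on the log2 scale (SE 0.054, adjusted p = 8.11e-12), and *Pmvk* fell by 0.92 (SE 0.056, adjusted p = 1.20e-11). *Scd1* was lower in cPLA_2_ KO than in cPLA_2_ WT confined libraries by 0.60 (SE 0.19, adjusted p = 0.0130), a call that was lost without confined cPLA_2_ KO replicate 3, its lowest library (-0.48, adjusted p = 0.0771), and with same-total scaling (-0.45, adjusted p = 0.0602). Over all alternatives its adjusted p ran from 0.00911 to 0.0771. These are the 4 members past a 1.5-fold difference. Of the smaller differences, *Fasn* was 0.54 higher, *Insig1* 0.49, *Acat2* 0.42, *Lss* 0.41 and *Elovl6* 0.38, all on the log2 scale and without overlap of the libraries, whereas *Insig2* was 0.48 lower. *Fads2* was barely called lower (-0.14, adjusted p = 0.04998), had a positive fold change under same-total scaling, and was not called without confined cPLA_2_ KO replicates 1, 2 or 3 or confined cPLA_2_ WT replicates 1 or 3. Calls were also lost for *Ebp* without cPLA_2_ KO replicates 1 or 3 or cPLA_2_ WT replicate 2, for *Sc5d* without replicate 2 of either genotype, and for *Acaca* without replicate 3 of either genotype.

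Setting both genotype comparisons side by side, which share no libraries, 13 members were lower in cPLA_2_ KO DCs when nonconfined and higher when confined: *Insig1*, *Stard4*, *Acat2*, *Mvd*, *Fdps*, *Lss*, *Cyp51*, *Nsdhl*, *Dhcr7*, *Acaca*, *Fasn*, *Elovl6* and *Fads1*. *Pmvk*, *Idi1*, *Sc5d*, *Scd1* and *Fads2* were lower in both, *Fads2* with a turned sign in confined cells under same-total scaling. *Srebf2* and *Tm7sf2* were called in neither. Of all genes tested, 4.11% were lower when nonconfined, and 18.8% were higher and 20.6% lower when confined. These shares are for single comparisons, and a share for both calls together is not given. The markers differed here too: all 10 neutrophil markers were higher in confined cPLA_2_ KO DCs, 5 of 7 eosinophil markers were higher and 2 lower, and 4 of 10 DC markers were lower, and their part was not tested.

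LPS-treated cells were compared with nonconfined cells of the same label. Under the cPLA_2_ WT label 13 members were higher and 15 lower, against 33.4% and 29.4% of all genes tested, with a median of -0.059 over the members and 0.031 over all genes. Under the cPLA_2_ KO label 21 were higher and 10 lower, against 33.4% and 30.1%, with medians of 0.28 and 0.024. Groups did not overlap for 28 and 30 members, against 68.4% and 66.0% of all genes. Both labels pooled gave 16 higher and 12 lower, against 37.2% and 34.3%, and 5 higher and 4 lower beyond a log2 fold change of 1, against 15.6% and 13.4%. With same totals the members split 7 higher and 24 lower under the cPLA_2_ WT label (17.8% and 52.0% of all genes) and 10 higher and 18 lower under the cPLA_2_ KO label (18.3% and 51.4%), and the medians of all genes moved to -0.47 and -0.44. Of 10 DC markers 9 were higher under the cPLA_2_ WT label and 7 under the cPLA_2_ KO label, of 8 markers of dividing cells 7 and 6 were lower. Of 7 eosinophil markers 1 was lower under the cPLA_2_ WT label and 6 under the cPLA_2_ KO label. Neutrophil markers were 4 higher and 4 lower of 10 under the cPLA_2_ WT label and 1 higher and 6 lower under the cPLA_2_ KO label, mast cell and basophil markers 2 higher and 2 lower of 8, then 1 higher and 6 lower, and macrophage markers 3 higher and 3 lower of 8 tested, then 3 higher and 5 lower. The part of these markers was not tested. Summed normalized counts averaged 48718670 and 48721816 in LPS groups against 34125100 and 34932739 in nonconfined ones.

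*Idi1* had 28591, 33285 and 31086 normalized counts under the cPLA_2_ WT label and 33648, 30163 and 32209 under the cPLA_2_ KO label. *Hmgcs1* had 9837, 10840.1 and 10172 under the cPLA_2_ WT label and 10611, 10122 and 10359.9 under the cPLA_2_ KO label. The LPS libraries of both labels were far above all nonconfined and confined libraries for these genes and did not separate by label. With the labels pooled, the regulators and sterol enzymes that rose past 1.5-fold were *Idi1* with 1.79 (SE 0.038, adjusted p = 2.20e-20), *Hsd17b7* with 1.30 (SE 0.074, adjusted p = 7.93e-13), *Hmgcs1* with 1.28 (SE 0.03, adjusted p = 1.28e-19), *Pmvk* with 1.04 (SE 0.04, adjusted p = 6.24e-16), *Fdft1* with 0.98 (SE 0.037, adjusted p = 4.23e-16), *Sqle* with 0.83 (SE 0.035, adjusted p = 3.04e-15) and *Insig2* with 0.70 (SE 0.064, adjusted p = 1.97e-09). *Insig1* rose by 0.31 under the cPLA_2_ WT label, where it was called lower under same-total scaling (-0.21). It rose by 0.62 (SE 0.046, adjusted p = 1.08e-10) under the cPLA_2_ KO label. *Cyp51* and *Msmo1* rose by 0.36 and 0.48 under the cPLA_2_ WT label. Under same-total scaling *Cyp51* was called lower there (-0.15), and *Msmo1* turned negative and was not called (-0.036).

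The other side fell. *Dhcr7* had 267, 248 and 226 normalized counts under the cPLA_2_ WT label and 233, 261 and 299 under the cPLA_2_ KO label, below all other conditions. With the labels pooled *Dhcr7* fell by 1.70 on the log2 scale (SE 0.066, adjusted p = 7.83e-16). *Elovl6* fell by 1.89 (SE 0.071, adjusted p = 5.02e-16), *Fads1* by 1.59 (SE 0.035, adjusted p = 3.12e-20), *Fasn* by 1.26 (SE 0.033, adjusted p = 8.42e-19) and *Fads2* by 0.89 (SE 0.038, adjusted p = 5.35e-15). *Tm7sf2* fell by 0.81 (SE 0.093, adjusted p = 7.41e-08), *Ebp*, a sterol isomerase, by 0.69 (SE 0.051, adjusted p = 4.99e-11) and *Acat2* by 0.65 (SE 0.055, adjusted p = 5.30e-10). *Acss2* rose by 1.07 (SE 0.12, adjusted p = 7.30e-08). *Srebf2* and *Sc5d* under the cPLA_2_ WT label, and *Srebf1*, *Srebf2*, *Stard4*, *Mvd*, *Fdps*, *Lss* and *Nsdhl* under the cPLA_2_ KO label, were called higher as deposited. Their signs were negative under same-total scaling. *Mvd* was then not called (-0.034), and the others were called lower, by values from -0.19 (*Stard4*) to -0.38 (*Fdps*). The signs of *Srebf1* and *Mvd* (cPLA_2_ WT) and *Acly* (cPLA_2_ KO), which were not called as deposited, turned in the same way.

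Many of these members also passed 1.5-fold under each label by itself. Under the cPLA_2_ WT label *Idi1* rose by 1.63 (SE 0.054, adjusted p = 1.06e-16), *Hmgcs1* by 1.08 (SE 0.043, adjusted p = 2.23e-15), *Hsd17b7* by 1.06 (SE 0.11, adjusted p = 1.20e-08), *Acss2* by 1.05 (SE 0.17, adjusted p = 1.79e-05), *Pmvk* by 0.91 (SE 0.056, adjusted p = 4.70e-12), *Fdft1* by 0.83 (SE 0.052, adjusted p = 6.67e-12), *Sqle* by 0.72 (SE 0.049, adjusted p = 2.39e-11) and *Insig2* by 0.72 (SE 0.09, adjusted p = 4.27e-07). *Elovl6* fell by 2.11 (SE 0.10, adjusted p = 5.98e-14), *Dhcr7* by 1.98 (SE 0.093, adjusted p = 4.39e-14), *Fads1* by 1.67 (SE 0.049, adjusted p = 1.27e-17), *Fasn* by 1.37 (SE 0.047, adjusted p = 2.07e-16), *Fads2* by 1.20 (SE 0.054, adjusted p = 2.23e-14), *Tm7sf2* by 0.97 (SE 0.13, adjusted p = 1.35e-06), *Acat2* by 0.96 (SE 0.077, adjusted p = 4.54e-10) and *Ebp* by 0.67 (SE 0.071, adjusted p = 3.52e-08). Under the cPLA_2_ KO label *Idi1* rose by 1.94 (SE 0.054, adjusted p = 5.21e-18), *Hmgcs1* by 1.47 (SE 0.043, adjusted p = 1.05e-17), *Hsd17b7* by 1.53 (SE 0.11, adjusted p = 3.14e-11), *Acss2* by 1.10 (SE 0.17, adjusted p = 9.46e-06), *Pmvk* by 1.16 (SE 0.056, adjusted p = 7.28e-14), *Fdft1* by 1.14 (SE 0.052, adjusted p = 2.81e-14), *Sqle* by 0.94 (SE 0.049, adjusted p = 3.13e-13), *Insig2* by 0.69 (SE 0.09, adjusted p = 8.46e-07), *Cyp51* by 0.75 (SE 0.041, adjusted p = 5.96e-13) and *Msmo1* by 0.65 (SE 0.05, adjusted p = 1.99e-10). *Elovl6* fell by 1.66 (SE 0.10, adjusted p = 3.80e-12), *Fads1* by 1.51 (SE 0.049, adjusted p = 7.98e-17), *Dhcr7* by 1.42 (SE 0.093, adjusted p = 1.48e-11), *Fasn* by 1.16 (SE 0.047, adjusted p = 3.69e-15), *Ebp* by 0.71 (SE 0.071, adjusted p = 1.47e-08) and *Tm7sf2* by 0.66 (SE 0.13, adjusted p = 0.000149). The rise of *Insig2* was not called under same-total scaling with either label (0.21 in both, with adjusted p of 0.0592 and 0.0585). That scaling shrank other rises by over 1.5 times as well: under the cPLA_2_ WT label *Hsd17b7* to 0.55, *Hmgcs1* to 0.57, *Fdft1* to 0.31, *Sqle* to 0.21, *Acss2* to 0.54 and *Pmvk* to 0.40, and under the cPLA_2_ KO label *Fdft1* to 0.66, *Sqle* to 0.46, *Acss2* to 0.62, *Pmvk* to 0.68, *Insig1* to 0.14, *Cyp51* to 0.27 and *Msmo1* to 0.17. It made the falls of *Ebp* and *Tm7sf2* over 1.5 times larger under both labels (-1.19 for *Ebp* in both, -1.48 and -1.14 for *Tm7sf2*), and that of *Acat2* under the cPLA_2_ WT label (-1.47). Leaving out the 4 libraries of doubtful label left 1 LPS library per label. *Acss2* then rose by 0.60 and *Tm7sf2* fell by 0.61 under the cPLA_2_ WT label. *Fads2* and *Acat2* fell by less than 1.5-fold under the cPLA_2_ KO label.

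*Scd1* and *Scd2* spread widely among the LPS libraries. *Scd1* had 173, 259 and 199.6 normalized counts under the cPLA_2_ WT label and 279, 145 and 184 under the cPLA_2_ KO label. *Scd2* had 3692, 6998 and 4819 under the cPLA_2_ WT label and 6597, 3291 and 4751 under the cPLA_2_ KO label. In both groups the highest library was about 1.5 to 2 times the lowest, and the groups overlapped. Against nonconfined cells, *Scd1* fell by 1.08 (SE 0.19, adjusted p = 3.00e-05) under the cPLA_2_ WT label and rose by 0.70 (SE 0.19, adjusted p = 0.00245) under the cPLA_2_ KO label, and *Scd2* rose by 0.66 (SE 0.19, adjusted p = 0.00389) under the cPLA_2_ KO label. With the 4 libraries of doubtful label left out, 1 LPS library per label remained and was assumed to vary like the other groups. The rises under the cPLA_2_ KO label were then no longer called (0.27 for *Scd1* and 0.15 for *Scd2*). Without LPS replicate 1 labelled cPLA_2_ KO, the highest of its group, they were 0.44 (adjusted p = 0.0275) for *Scd1* and 0.42 (adjusted p = 0.0383) for *Scd2*, and under same-total scaling 0.22 and 0.18. Over all alternatives the adjusted p ran from 0.000172 to 0.315 for *Scd1* and from 6.16e-05 to 0.420 for *Scd2*. Whether the LPS response differed between labels was not tested. With the doubtful libraries left out, *Lss* and *Nsdhl* lost their calls under the cPLA_2_ WT label (-0.18 and -0.19). Under the cPLA_2_ KO label *Scd1* and *Scd2* lost theirs, as given above. No call turned to the opposite direction under either label. Leaving out single libraries, *Nsdhl* lost its call under the cPLA_2_ WT label without nonconfined replicate 2, *Scd2* gained one without LPS replicate 2, and under the cPLA_2_ KO label *Fdps* was lost without LPS replicates 2 or 3 or nonconfined replicates 2 or 3, *Nsdhl* without LPS replicates 2 or 3 or nonconfined replicate 3, and *Acly* gained a call without LPS replicate 2.

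Libraries labelled cPLA_2_ KO were also compared with those labelled cPLA_2_ WT after LPS. With limma 0 members and 0.0% of all genes tested were called higher, and 0 members and 0.0% were called lower; 1 member and 890 genes had an unadjusted p under 0.05. edgeR called 0 members (1 at an unadjusted p under 0.05, with 812 genes) and DESeq2 called 0 (2, with 831 genes). Groups did not overlap for 4 members, against 9.50% of all genes. With the 4 libraries of doubtful label left out, 1 library is compared with 1, and the spread comes from the other groups, which varied less than the LPS groups did. *Scd2* then had 3291 normalized counts in the library labelled cPLA_2_ KO and 6998 in the one labelled cPLA_2_ WT (-1.09), and *Scd1* had 145 and 259 (-0.83). The 3 libraries labelled cPLA_2_ KO alone spanned 3291 to 6597 counts for *Scd2* and 145 to 279 for *Scd1*, about as far apart as the libraries of the pair.

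Confined cells were also compared with LPS-treated cells of the same label. Under the cPLA_2_ WT label 5 members were higher in confined cells and 21 lower, against 21.6% and 27.2% of all genes tested, and under the cPLA_2_ KO label 10 were higher and 18 lower, against 28.1% and 30.6%. Same-total scaling changed these splits to 11 higher and 13 lower (41.1% and 13.7% of all genes) and to 20 higher and 6 lower (53.8% and 15.7%), with the medians of all genes at 0.26 and 0.46. Groups did not overlap for 28 members under the cPLA_2_ WT label and 29 under the cPLA_2_ KO label, against 55.8% and 62.4% of all genes. Past 1.5-fold under the cPLA_2_ WT label, *Fads1* was 0.99 higher in confined cells (SE 0.049, adjusted p = 4.74e-13), while *Scd2* was 1.46 lower (SE 0.19, adjusted p = 1.17e-06), *Hsd17b7* 0.96 lower (SE 0.11, adjusted p = 1.39e-07) and *Acaca* 0.79 lower (SE 0.075, adjusted p = 1.45e-08). *Idi1* was lower by 0.67 (SE 0.054, adjusted p = 1.37e-09), *Insig1* by 0.65 (SE 0.046, adjusted p = 1.34e-10), *Hmgcs1* by 0.64 (SE 0.043, adjusted p = 6.28e-11), *Sqle* by 0.62 (SE 0.049, adjusted p = 8.09e-10) and *Srebf1* by 0.59 (SE 0.053, adjusted p = 5.44e-09).

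Under the cPLA_2_ KO label *Dhcr7* and *Fads1* were higher in confined cells, by 1.45 (SE 0.093, adjusted p = 1.27e-11) and 1.45 (SE 0.049, adjusted p = 1.80e-16), and *Elovl6* was higher by 0.67 (SE 0.10, adjusted p = 6.68e-06). *Idi1* was lower by 1.63 (SE 0.054, adjusted p = 1.26e-16), *Scd2* by 1.18 (SE 0.19, adjusted p = 1.31e-05) and *Scd1* by 1.07 (SE 0.19, adjusted p = 4.05e-05). *Hsd17b7* was lower by 0.80 (SE 0.11, adjusted p = 1.20e-06), *Pmvk* by 0.79 (SE 0.056, adjusted p = 7.66e-11) and *Hmgcs1* by 0.74 (SE 0.043, adjusted p = 2.18e-12). Under same-total scaling the values past 1.5-fold shrank by over 1.5 times for *Idi1* (-0.38), *Insig1* (-0.36), *Hmgcs1* (-0.35), *Sqle* (-0.33), *Srebf1* (-0.30) and *Acaca* (-0.50) under the cPLA_2_ WT label and for *Hmgcs1* (-0.29), *Pmvk* (-0.34), *Hsd17b7* (-0.35), *Scd1* (-0.63) and *Scd2* (-0.74) under the cPLA_2_ KO label, where *Elovl6* grew (1.11). The called members whose sign turned were *Scap*, *Mvk*, *Mvd*, *Lss* and *Acly* under the cPLA_2_ WT label, none of which was then called. Under the cPLA_2_ KO label *Srebf2*, *Insig2*, *Cyp51* and *Acaca* also turned and were not called. *Insig1* (0.29), *Fdps* (0.27), *Sc5d* (0.21), *Acly* (0.27) and *Fads2* (0.27) turned and were called higher. Signs of members that were not called turned for *Nsdhl*, *Acss2* and *Fads2* (cPLA_2_ WT) and for *Stard4*, *Mvk* and *Msmo1* (cPLA_2_ KO). With the 4 doubtful LPS libraries left out, no call turned to the opposite direction. That fit holds 1 LPS library per label and takes its spread from the other groups, so effect sizes alone are given. Under the cPLA_2_ WT label *Pmvk* (0.13), *Elovl6* (0.060), *Mvk* (-0.28), *Scap* (-0.077) and *Ebp* (0.21) lost their calls. *Fads2* was at -0.15 there, from which no call is drawn. Under the cPLA_2_ KO label *Insig2* (-0.16), *Acly* (-0.079), *Acss2* (0.31), *Sc5d* (-0.12) and *Nsdhl* (0.21) lost theirs. In that fit *Scd2* was lower by 0.67 and *Scd1* by 0.64 under the cPLA_2_ KO label. When single libraries were left out, 23 to 25 of the calls under the cPLA_2_ WT label and 23 to 26 under the cPLA_2_ KO label remained. Under the cPLA_2_ WT label *Ebp* lost its call without LPS replicates 2 or 3 or confined replicate 1, *Scap* without LPS replicate 1 or confined replicates 2 or 3, *Elovl6* without LPS replicate 1 or confined replicate 3, *Scd1* without LPS replicate 2 or confined replicate 2, and *Lss* without confined replicate 2, while *Acat2* and *Tm7sf2* gained one without LPS replicate 2. Under the cPLA_2_ KO label *Mvd* lost its call without LPS replicates 2 or 3 or confined replicates 1 or 2, *Acss2* without LPS replicate 1 or any 1 confined library, *Fasn* without LPS replicate 2 or confined replicates 2 or 3, *Acly* without LPS replicate 1 or confined replicate 2, *Insig2* without LPS replicate 1 or confined replicate 3, *Sc5d* without LPS replicate 3 or confined replicate 2, *Fads2* without LPS replicate 1 and *Insig1* without LPS replicate 2, while *Msmo1* gained one without LPS replicate 1. All 10 DC markers were lower in confined than in LPS-treated cells under both labels, and 6 of 8 markers of dividing cells were higher under both. Of 10 neutrophil markers 9 were lower under the cPLA_2_ WT label, and 4 were higher and 2 lower under the cPLA_2_ KO label. Mast cell and basophil markers were 1 higher and 6 lower of 8 under both labels, eosinophil markers 2 higher and 5 lower of 7 under the cPLA_2_ WT label and 1 higher and 4 lower under the cPLA_2_ KO label, and macrophage markers 1 higher and 6 lower of 8 tested, then 1 higher and 3 lower. The part of these markers was not tested.

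Other genes of the pathway, which are not members, were counted from lists. Of all genes tested, 28.2% were higher and 28.4% lower on confinement of cPLA_2_ WT DCs, and 22.8% and 23.4% of cPLA_2_ KO DCs. In cPLA_2_ KO against cPLA_2_ WT DCs 4.78% were higher and 4.11% lower when nonconfined, and 18.8% and 20.6% when confined. With LPS, labels pooled, 37.2% were higher and 34.3% lower. SREBP processing and retention (8 genes) had 0 genes called by limma in nonconfined cPLA_2_ KO against cPLA_2_ WT DCs (1 at an unadjusted p under 0.05; 0 by edgeR and 0 by DESeq2) and 2 lower in confined ones, with 5 higher and 1 lower on confinement of cPLA_2_ WT DCs, 3 higher and 1 lower in cPLA_2_ KO DCs, and 4 higher and 1 lower with LPS, labels pooled. Sterol export and LXR genes (10) had 5 higher and 3 lower on confinement of cPLA_2_ WT DCs and 6 higher and 2 lower in cPLA_2_ KO DCs. In confined cPLA_2_ KO against cPLA_2_ WT DCs 5 were higher and 2 lower, in nonconfined ones 3 higher and 2 lower, and with LPS 7 higher and 3 lower. *Abca1*, the exporter of cholesterol to apolipoproteins, had 677, 699 and 727 normalized counts in nonconfined cPLA_2_ WT and 263, 396 and 323 in nonconfined cPLA_2_ KO libraries. Confined libraries had 4513, 5032 and 4880.1 for cPLA_2_ WT and 326, 361 and 376 for cPLA_2_ KO. The rise was thus seen in confined cPLA_2_ WT and not in confined cPLA_2_ KO libraries, which differed by -3.76 (SE 0.14, adjusted p = 2.57e-15), with an interaction of -2.64 (SE 0.20, adjusted p = 8.12e-10). *Ch25h*, which makes an oxysterol, rose with confinement in cPLA_2_ WT DCs by 1.76 (SE 0.096, adjusted p = 1.04e-12) and had an interaction of -1.26 (SE 0.14, adjusted p = 2.65e-07). *Cyp27a1*, another sterol hydroxylase, fell with confinement by 2.55 (SE 0.20, adjusted p = 4.44e-10) in cPLA_2_ WT and by 2.00 (SE 0.20, adjusted p = 4.29e-08) in cPLA_2_ KO DCs.

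Sterol uptake, transport and storage (11 genes) had 0 called by limma in nonconfined cPLA_2_ KO against cPLA_2_ WT DCs (3 at an unadjusted p under 0.05; 0 by edgeR and 1 by DESeq2), 5 higher and 4 lower in confined ones, 7 higher and 2 lower on confinement of cPLA_2_ WT DCs, 6 higher and 1 lower in cPLA_2_ KO DCs, and 5 higher and 4 lower with LPS. *Tmem97*, an endoplasmic reticulum protein of sterol handling, fell with confinement in cPLA_2_ WT DCs by 1.19 (SE 0.16, adjusted p = 1.93e-06), with an interaction of 1.23 (SE 0.23, adjusted p = 0.000298). The isoprenoid branch (9) had 1 lower in nonconfined cPLA_2_ KO DCs, 2 higher and 2 lower in confined ones, 3 higher and 4 lower on confinement of cPLA_2_ WT and 3 higher and 1 lower of cPLA_2_ KO DCs, and 3 in each direction with LPS. Fatty acid supply and elongation outside the members (13 tested of 14) had 0 called by limma in nonconfined cPLA_2_ KO DCs (1 at an unadjusted p under 0.05; 0 by edgeR and 0 by DESeq2), 3 higher and 5 lower in confined ones, 4 higher and 3 lower on confinement of cPLA_2_ WT and 3 higher and 4 lower of cPLA_2_ KO DCs, and 4 higher and 5 lower with LPS. *Me1*, malic enzyme, which supplies NADPH, rose with confinement by 2.29 (cPLA_2_ WT) and 2.41 (cPLA_2_ KO) and with LPS by 3.05.

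Acyl-CoA and glycerolipid use (12) had 2 higher and 3 lower in nonconfined cPLA_2_ KO DCs, 5 higher and 3 lower in confined ones, 6 higher and 4 lower on confinement of cPLA_2_ WT and 7 higher and 3 lower of cPLA_2_ KO DCs, and 6 higher and 5 lower with LPS. *Dgat2*, which makes triglyceride, rose with confinement in cPLA_2_ WT DCs by 2.03 (SE 0.069, adjusted p = 3.87e-16) and had an interaction of -1.35 (SE 0.098, adjusted p = 4.86e-10). Fatty acid oxidation (12 tested of 13) had 1 gene higher and 1 lower in nonconfined cPLA_2_ KO DCs, 4 higher and 3 lower in confined ones, 6 higher and 2 lower on confinement of cPLA_2_ WT and 5 higher of cPLA_2_ KO DCs, and 6 higher and 3 lower with LPS. The higher gene in nonconfined cPLA_2_ KO DCs was *Acot1*, with 478, 377 and 399.8 normalized counts against 3.81, 0 and 0.983 in nonconfined cPLA_2_ WT libraries.

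The cell type markers were summed in each library. DC markers, most abundant in *Cd74*, summed to 491510 to 516372 normalized counts in nonconfined cPLA_2_ WT, 583761 to 625037 in nonconfined cPLA_2_ KO, 484738 to 518427 in confined cPLA_2_ WT and 422768 to 437573 in confined cPLA_2_ KO libraries, with no DC marker at 0. Neutrophil markers, led by *S100a9*, summed to 240277 to 245294 and 333356 to 370846 in nonconfined, and to 144958 to 154432 and 330924 to 346911 in confined cPLA_2_ WT and cPLA_2_ KO libraries. They were thus higher in cPLA_2_ KO than in cPLA_2_ WT libraries in both settings. Eosinophil markers, led by *Prg2*, summed to 33201 to 33352 and 76319 to 82359 in nonconfined, and to 9221 to 9829 and 24628 to 25520.1 in confined libraries in the same order. Markers of dividing cells, led by *Top2a*, ran from 38888 to 40622 and 29993 to 31469 in nonconfined to 23626 to 25084 and 22393 to 23456 in confined libraries. Mast cell and basophil markers, led by *Cpa3* in nonconfined cells, by *Hdc* in confined cPLA_2_ WT and by *Prss34* in confined cPLA_2_ KO cells, summed to 10499 to 10680 (nonconfined cPLA_2_ WT), 15226 to 15700.3 (nonconfined cPLA_2_ KO), 16326 to 16984 (confined cPLA_2_ WT) and 8772 to 9061 (confined cPLA_2_ KO). Macrophage markers summed to 17278 to 24549 in these 12 libraries, with *Vsig4* at 0 in all and *Cd163* at 0 in most. Adipocyte markers summed to at most 16.0 in any of the 18 libraries, with 3 to 6 of 6 at 0. The labels name no sort. The study's culture protocol instead separates cells by how firmly they attach. Only the loosely attached cells are kept, most of them positive for CD11c. By that protocol this step is meant to leave out unattached granulocytes and firmly attached macrophages. Neutrophil and eosinophil markers were still read in all 18 libraries, with no marker of either list at 0. Which cells held these transcripts was not tested.

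The DC marker counts in LPS libraries were 693638 to 798903, those of neutrophils 277933 to 313086, of eosinophils 27436 to 47631 and of dividing cells 15502 to 21559. In the nonconfined genotype comparison 5 of 10 DC markers were higher and 1 lower, 6 of 8 mast cell and basophil markers and 5 of 8 tested macrophage markers were higher, and the 1 tested adipocyte marker was not called. In confined cells 6 and 4 of the latter lists were higher and 1 of each was lower, and 1 of 8 markers of dividing cells was lower. On confinement, DC markers were 3 higher and 5 lower in cPLA_2_ WT DCs, eosinophil markers 1 higher and 5 lower in cPLA_2_ WT and 6 lower in cPLA_2_ KO DCs, mast cell and basophil markers 2 higher and 6 lower in both, macrophage markers 1 higher and 4 lower in cPLA_2_ WT and 1 higher and 5 lower in cPLA_2_ KO DCs, and markers of dividing cells 6 lower in cPLA_2_ KO DCs. *Cidec*, the tested adipocyte marker, had 0, 1.86 and 0 counts in nonconfined and 14, 13.9 and 10.9 in confined cPLA_2_ KO libraries and was called higher.

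Some table entries need care. The entry for *Idi1* also carries the symbol *Idi1-ps1*. By position on GRCm39, the span of *Fdft1* overlaps that of *Ctsb*, *Pmvk* and *Fdps* overlap *Il6ra*, *Srebf1* overlaps *Rai1*, *Sqle* overlaps *Washc5*, *Tm7sf2* overlaps *Vps51* and *Acss2* overlaps *Gss*, and how reads in shared stretches were counted is not stated. *Ctsb* had a mean of 1.086e+05 normalized counts over the 18 libraries, far above *Fdft1*, and its part in the *Fdft1* values was not tested. The other overlapping genes named here had means of 667.7 to 2629. *Scd1* and *Scd2* lie near each other on chromosome 19, *Scd1* at chr19:44380780-44396148 on the minus strand (GSMG0028560) and *Scd2* at chr19:44282112-44295303 on the plus strand (GSMG0027753). Of the 100-base stretches of the canonical *Scd1* transcript, 48 of 4925 (0.975%) were also found in that of *Scd2*, and 48 of 5356 (0.896%) of *Scd2* stretches in *Scd1*. *Fads1* and *Fads2* also lie together on chromosome 19, at chr19:10160252-10174241 and chr19:10040129-10078980. Positions of 6 further members are given here: *Insig1* (GSMG0040049, chr5:28276358-28283659), *Hmgcs1* (GSMG0013936, chr13:120151887-120169796), *Idi1* (GSMG0031971, chr13:8935642-8942487), *Lss* (GSMG0003963, chr10:76367439-76392972), *Dhcr7* (GSMG0050218, chr7:143376904-143402147) and *Fasn* (GSMG0010412, chr11:120696773-120715373).

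Promoter sequences of the members were read from RefSeq (GRCm38.p6). Of the 33 members 26 were matched, with 34 promoters, and *Stard4*, *Fdps*, *Fdft1*, *Sqle*, *Scd1*, *Scd2* and *Fads1* were not matched. The 250 bases before each gene start were searched on both strands for the sterol regulatory element TCACNCCAC, the E-box CACGTG, which reads the same on both strands, and the CCAAT box CCAAT. The sterol regulatory element was found in 1 of 34 member promoters (*Hmgcs1*) and in 1.05% of 32851 promoters. The E-box was found in 5 (*Scap*, *Insig1*, *Hsd17b7*, *Sc5d* and *Dhcr7*) and in 6.02% of all promoters, and the CCAAT box in 21 and in 33.8%. A match describes letters and not a bound site. Shown, with matches in capitals (minus-strand matches of CCAAT read ATTGG), are 1 regulator, 1 mevalonate enzyme, 1 sterol enzyme and 1 fatty acid enzyme: *Insig1* at chr5:28071162-28071411 (plus strand), *Hmgcs1* at chr13:119690101-119690350 (plus strand), *Lss* at chr10:76531355-76531604 (plus strand) and *Fasn* at chr11:120824548-120824797 (minus strand). In *Fasn*, matches of CCAAT on both strands share bases.
Insig1: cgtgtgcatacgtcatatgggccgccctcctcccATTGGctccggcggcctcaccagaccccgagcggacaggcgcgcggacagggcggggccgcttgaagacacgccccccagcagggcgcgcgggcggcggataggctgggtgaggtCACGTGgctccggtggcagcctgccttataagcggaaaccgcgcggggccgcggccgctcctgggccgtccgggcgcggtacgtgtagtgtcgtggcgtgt
Hmgcs1: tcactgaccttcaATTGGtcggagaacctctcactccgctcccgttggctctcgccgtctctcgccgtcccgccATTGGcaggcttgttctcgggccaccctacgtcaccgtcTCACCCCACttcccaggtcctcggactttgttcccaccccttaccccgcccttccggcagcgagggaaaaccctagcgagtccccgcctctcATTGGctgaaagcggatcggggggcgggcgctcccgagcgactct
Lss: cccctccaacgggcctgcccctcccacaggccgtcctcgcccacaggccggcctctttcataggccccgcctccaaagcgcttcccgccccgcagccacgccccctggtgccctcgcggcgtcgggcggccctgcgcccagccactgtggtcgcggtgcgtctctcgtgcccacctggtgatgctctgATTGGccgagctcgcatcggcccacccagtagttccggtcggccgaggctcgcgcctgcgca
Fasn: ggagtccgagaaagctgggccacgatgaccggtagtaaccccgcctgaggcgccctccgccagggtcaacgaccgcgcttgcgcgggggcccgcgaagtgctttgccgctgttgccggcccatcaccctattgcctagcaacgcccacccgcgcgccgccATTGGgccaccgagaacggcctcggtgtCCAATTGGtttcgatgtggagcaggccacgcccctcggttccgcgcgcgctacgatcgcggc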

How the data were processed

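RNA was sequenced after polyA selection from 18 libraries of mouse bone marrow-derived DCs, 3 in each of 6 conditions. Per the submitters' notes, the authors aligned reads to GRCm39 with STAR 2.7.5a, counted them over Mouse FAST DB genes with featureCounts 1.5.0 and normalized them with DESeq2 in R 3.5.3. The deposited values are a signal for each gene and library, called normalized counts here: reads divided by a size factor of the library, not scaled for gene length. Undoing these factors recovered whole reads for 100% of values, with a largest deviation from a whole number of 6.985e-10. The labels do not say which of the 2 named stranded kits served which library, nor whether counting used strand.

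A gene was tested when 3 or more libraries held 10 or more normalized counts. limma 3.58.1 (with trend) in R 4.3.3 was fitted to log2(normalized count + 1) with a mean for each condition over all 18 libraries, and p-values were adjusted by Benjamini-Hochberg over all genes tested in a comparison. A member is called at an adjusted p under 0.05, and members called with a fold change of at least 1.5 are named with their values. The method was tested on simulated data for 1 comparison, confined against nonconfined cPLA_2_ WT DCs. It recovered 56 of 67 genes changed by 1.5-fold, 61 of 67 changed by 2-fold and 66 of 66 changed by 4-fold. There were 16 false calls in the simulation of 17875 genes. No other genes were changed, rises and falls were about equal in number, and counts were scaled by the same factors that produced them. The simulation therefore cannot speak to the choice of scaling, nor to comparisons in which a large share of genes changes. With 3 libraries per group, the biological coefficient of variation was 0.0477 to 0.109 by condition. Plots and summaries used Python 3.11.15, pandas 2.3.3 and matplotlib 3.10.9.

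As alternatives, the pseudocount was set to 0.5 or 5, the filter was dropped or raised to 100, libraries were rescaled to equal totals or by TMM factors, and further fits used edgeR 4.0.16 and DESeq2 1.42.0 on the recovered reads, the compared conditions alone, a block for the replicate number, leaving out each library, and a log2 fold limit of 1. Leaving out 4 LPS libraries and pooling the LPS labels were chosen after seeing the data. The members and the gene lists (SREBP processing, sterol export, sterol uptake, isoprenoid branch, fatty acid supply, acyl-CoA use, fatty acid oxidation and the cell type markers) were chosen with earlier results of these data known.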

Additional observations from a re-analysis of the deposited data

Results flagged for a closer look

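The effect of confinement differed between cPLA_2_ WT and cPLA_2_ KO DCs by the interaction test of limma, with 3 libraries per group, for 16 members past a 1.5-fold difference. Values are log2 fold changes in cPLA_2_ KO DCs minus those in cPLA_2_ WT DCs. All of these members were already called lower in nonconfined cPLA_2_ KO than in nonconfined cPLA_2_ WT DCs, and that difference enters each value. Genotype and the presence of male cells cannot be told apart in these groups. Positive values were 0.81 (SE 0.065, adjusted p = 2.19e-09) for *Insig1*, 0.72 (SE 0.085, adjusted p = 9.25e-07) for *Stard4*, 0.99 (SE 0.11, adjusted p = 3.51e-07) for *Acat2*, 0.74 (SE 0.069, adjusted p = 3.04e-08) for *Mvd* and 1.02 (SE 0.091, adjusted p = 1.27e-08) for *Lss*. These 5 fell with confinement in cPLA_2_ WT and rose in cPLA_2_ KO DCs, as did *Nsdhl* with 0.76 (SE 0.095, adjusted p = 2.30e-06). *Dhcr7* had 1.46 (SE 0.13, adjusted p = 1.69e-08), *Scd1* 1.26 (SE 0.26, adjusted p = 0.000962) and *Fads1* 0.62 (SE 0.069, adjusted p = 4.20e-07), and these 3 fell in cPLA_2_ WT DCs and were not called in cPLA_2_ KO DCs.

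*Acaca* had 0.65 (SE 0.11, adjusted p = 7.15e-05), *Fasn* 0.84 (SE 0.066, adjusted p = 1.95e-09), *Scd2* 1.29 (SE 0.26, adjusted p = 0.000808) and *Elovl6* 0.84 (SE 0.14, adjusted p = 0.000110), and these fell in both genotypes. *Hsd17b7* had 0.63 (SE 0.15, adjusted p = 0.00293) and rose in cPLA_2_ KO DCs. Negative values were -0.71 (SE 0.079, adjusted p = 3.84e-07) for *Pmvk* and -0.66 (SE 0.076, adjusted p = 8.18e-07) for *Idi1*, which rose more in cPLA_2_ WT than in cPLA_2_ KO DCs. Neutrophil and DC markers had called interactions too, as given above, and their part was not tested.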

How the results depend on the processing

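The 100 values of members past 1.5-fold in the comparisons other than LPS with pooled labels, whose 16 values were not recomputed, were computed 1750 times under the alternatives: 1742 kept their direction and their call, 8 kept the direction without the call, and none reversed. The 8 were *Scd1* in confined cPLA_2_ KO against cPLA_2_ WT DCs (-0.45 with the same total, -0.48 without confined cPLA_2_ KO replicate 3), *Insig2* after LPS with the same total (0.21 under both labels), and *Scd1* and *Scd2* after LPS under the cPLA_2_ KO label (0.22 and 0.18 with the same total, 0.27 and 0.15 without the 4 LPS libraries).

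With the same total per library (shares of all genes in parentheses), confinement of cPLA_2_ WT DCs gave 5 higher (20.02%), confined cPLA_2_ KO against cPLA_2_ WT DCs 3 lower (14.6%), LPS 7 higher and 24 lower under the cPLA_2_ WT label (17.8% and 52.0%) and 10 higher and 18 lower under the cPLA_2_ KO label (18.3% and 51.4%), and confined against LPS-treated cells 11 higher and 13 lower under the cPLA_2_ WT label (41.1% and 13.7%) and 20 higher and 6 lower under the cPLA_2_ KO label (53.8% and 15.7%). This scaling shifts all genes, as the medians above show.

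A log2 fold limit of 1 left fewer by construction (shares of all genes in parentheses): 1 higher and 7 lower on confinement of cPLA_2_ WT DCs (11.4% and 7.62%), 1 and 1 in cPLA_2_ KO DCs (6.43% and 5.53%), 4 and 0 for the interaction (1.11% and 6.56%), 2 lower in nonconfined cPLA_2_ KO DCs (0.302%), 0 and 0 in confined ones (2.79% and 7.31%), 4 and 6 after LPS under the cPLA_2_ WT (15.04% and 12.3%) and 6 and 4 under the cPLA_2_ KO label (15.03% and 12.9%), and 0 and 1 (cPLA_2_ WT; 6.32% and 7.51%) and 2 and 3 (cPLA_2_ KO; 10.4% and 12.6%) for confined against LPS-treated cells. In the latter comparison under the cPLA_2_ WT label edgeR called 8 higher (25.8% of all genes), and the cause was not tested. Without the 4 doubtful LPS libraries, 1 library of each label remained, kept by its *Ddx3y* level. *Scd2* and *Scd1* were lower in the one labelled cPLA_2_ KO (-1.09 and -0.83). For both genes this pair holds the highest library labelled cPLA_2_ WT and the lowest labelled cPLA_2_ KO, so no call is drawn from it.

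Leaving out single libraries gave 22 to 25 lower in nonconfined cPLA_2_ KO DCs. The replicate numbers share no stated source, and no comparison had all 3 correlations above 0.1 (confined cPLA_2_ KO with cPLA_2_ WT came nearest, with 0.338, 0.208 and 0.0402). Blocking on them moved no count of members by more than 1. With 1 library per label, the lone LPS libraries are assumed to vary like the other groups, whose coefficients of variation were smaller (0.0477 to 0.0799, against 0.109 and 0.108). Depth limits no member by the filter on low values, as all 33 were tested.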

Other observations

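Among LPS-treated libraries, values are given here beside *Ddx3y*, which had 1271, 0 and 662 normalized counts in replicates 1 to 3 under the cPLA_2_ WT label and 2.12, 1476 and 783 under the cPLA_2_ KO label. In the same order *Scd1* had 173, 259 and 199.6, then 279, 145 and 184. *Scd2* had 3692, 6998 and 4819, then 6597, 3291 and 4751. *Acss2* had 288, 165 and 238, then 172, 238 and 268. For *Scd1* and *Scd2* the library lowest in *Ddx3y* was the highest of its label and the library highest in *Ddx3y* the lowest. For *Acss2* the library lowest in *Ddx3y* was the lowest of its label. *Elovl6* had 429.6, 591 and 512, then 587, 455 and 479, again highest in the library of each label that was lowest in *Ddx3y*. *Abca1*, outside the members, had 6089, 6229 and 6023, then 6439, 3669 and 4678, and *Acot1* had 54.9, 0.915 and 33.6, then 0, 49.2 and 40.7. Summed eosinophil markers were 47382, 27450.4 and 38018, then 27436, 47631 and 38651, in the order of *Ddx3y* within each label. Summed markers of dividing cells were 17251, 21559 and 19117, then 21032, 15502 and 18278, in the reverse order. Their part in these values was not tested.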
